A study of Ovis aries with 15 samples.

Results

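Intrahepatic bile ducts form during fetal life from hepatoblasts that lie next to the portal vein. In mouse and human, the ligand Jagged 1 on portal mesenchyme binds the receptor NOTCH2 on neighbouring hepatoblasts, the receptor is cut by proteases, and its freed inner part joins the DNA-binding protein RBPJ to switch on target genes such as HES1 and HEY1. Cells that take the duct fate (cholangiocytes) express SOX9, simple epithelial keratins and EPCAM, and later the chloride channel CFTR, which serves bile fluid secretion.

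The genes described here are 10 markers of cholangiocytes and of the Notch signal of duct formation, chosen by name: KRT7, KRT19, SOX9, SOX4, EPCAM, CFTR, SPP1, JAG1, NOTCH2 and ANXA4. Under these names 9 of the 10 were measured, out of 31411 genes in the count table, and all 9 passed the filter on low counts that left 16977 genes for testing. KRT7 was not analysed here. The libraries were made from poly(A)-selected RNA of the liver of sheep fetuses (Ovis aries) on gestational day (GD) 100, 124 or 144, with 4, 5 and 6 libraries, to follow gene expression across gestation. The labels name no genotype, breed, sex or treatment for any stage.

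Library totals ran from 24215612 to 38247295 estimated counts. A count of 3, used as the floor of detection, was worth 0.0797 to 0.128 CPM (the count scaled to a common library size), which covers counting error only. Values below are CPM scaled by the trimmed mean of M values (TMM). The 135 values of the 9 genes held no fractional count and lay between 7 and 4191 counts. The letters in the sample codes change with the stage, and any cohort or collection they stand for cannot be told apart from gestational age. Whether each library is its own fetus is not in the labels, and the spread behind every p-value is that between samples, which may be technical. GD100 replicates 2 to 4 had 10.6 to 10.8% of their values as fractions, against 5.09 to 6.2% in the other libraries, and fits with GD100 replicate 1 alone are given beside the named results whose call they end. Whole liver was used, and more cells of a type cannot be told apart from more RNA per cell. Lists of hepatocyte markers (10 genes) and endothelial markers (9 of 10 measured) were above 0 counts in every library.

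Over the whole span 4 of the 9 genes rose, and none fell by edgeR, by limma-voom or by DESeq2, or at an unadjusted p under 0.05. ANXA4, CFTR, NOTCH2 and JAG1 were higher at GD144 than at GD100, while KRT19, EPCAM, SOX9, SOX4 and SPP1 did not pass the test. The 4 rises are 44.4% of the 9 genes, beside 27.1% of all tested genes called higher and 55.0% called in either direction in GD144 against GD100. The median log2 change of the 9 genes was 0.49, against 0.03 over all tested genes. For GD124 against GD100 3 of the 9 genes rose (NOTCH2, CFTR and ANXA4), 33.3% beside 16.6% of all genes called higher and 34.0% called in all. For GD144 against GD124 2 rose (NOTCH2 and ANXA4), 22.2% beside 12.1% called higher and 27.5% called in all. The later change was not called different from the earlier one for any of the 9 genes (0 by edgeR and DESeq2 and 0 at an unadjusted edgeR p under 0.05, 1 by limma-voom, SOX9), beside 5.90% of all tested genes, 3.75% lower. Any difference between stages was called for 3 of the 9 genes (CFTR, NOTCH2 and ANXA4), beside 56.3% of all tested genes. When libraries were scaled to their totals only, 3 and 2 of the 9 genes were again called in the 2 intervals, and over the whole span JAG1 lost its call and SOX4 passed as lower (-0.51, edgeR adjusted p = 0.0492). That scaling put, of all genes called, 30.8% higher for GD124 against GD100 in place of 48.9%, and 54.1% higher for GD144 against GD124 in place of 43.9%. Calls rest on the quasi-likelihood test of edgeR with a Benjamini-Hochberg adjusted p under 0.05 over all 16977 genes.

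**Figure D1:**
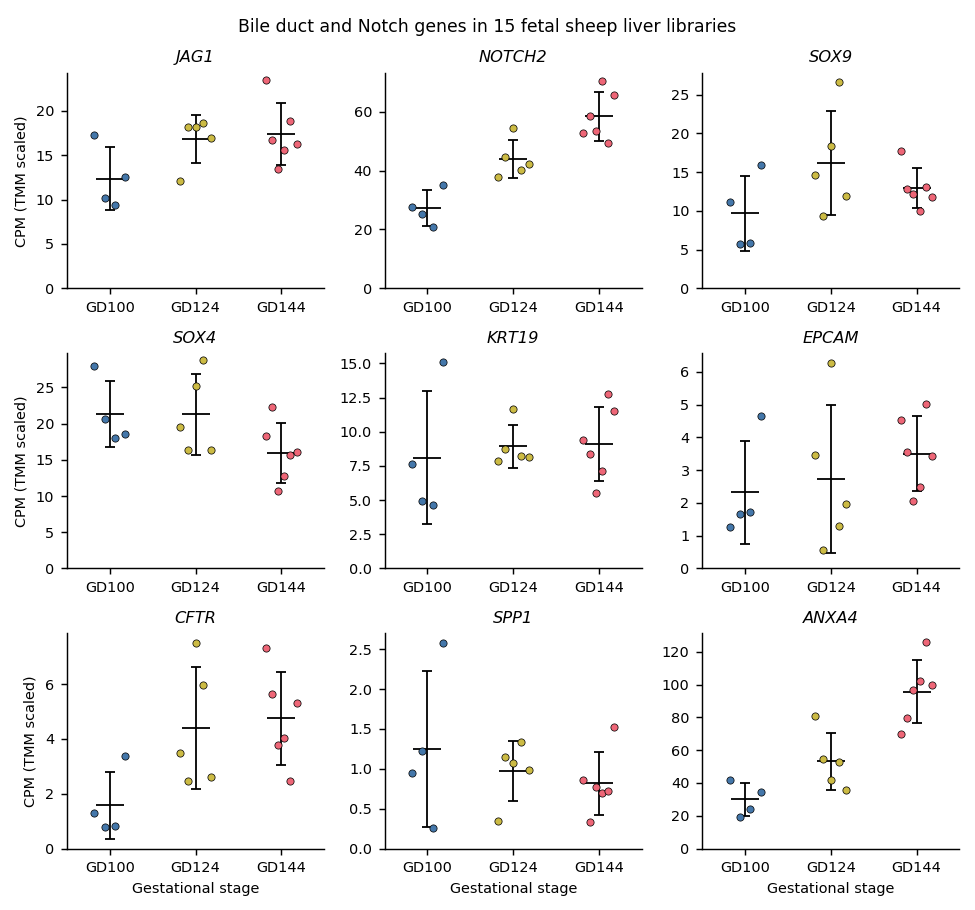
Points are the libraries of each gestational stage (4 at GD100, 5 at GD124, 6 at GD144) in CPM, and bars are the mean and SD. NOTCH2 and ANXA4 shift upward with stage without overlap between GD144 and GD100, whereas KRT19, EPCAM and SPP1 overlap between stages and GD100 replicate 4 (rightmost GD100 point) lies at the top of its stage in 6 of the 9 panels.

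JAG1 encodes Jagged 1, the Notch ligand whose loss causes duct paucity in Alagille syndrome of humans. It had 17.3, 10.2, 9.43 and 12.6 CPM in GD100 replicates 1 to 4, 12.1, 18.2, 18.2, 18.7 and 16.9 CPM in GD124 replicates 1 to 5, and a lowest, median and highest value of 13.4, 16.5 and 23.5 CPM at GD144. GD100 replicate 1 was within the range of the later libraries, and the stages overlapped. The log2 change was 0.49 ± 0.19 (SE) for GD144 against GD100 (edgeR adjusted p = 0.0399) and 0.44 ± 0.20 for GD124 against GD100 (edgeR adjusted p = 0.0973). The second of these passed without GD100 replicate 1 (0.65, edgeR adjusted p = 0.0167) and by limma-voom (0.69, limma adjusted p = 0.0048). With replicate 1 standing alone for GD100 the first change was 0.02 on the log2 scale (edgeR adjusted p = 0.97). The call was also lost without GD100 replicates 2, 3 or 4 or GD144 replicates 1, 2 or 5 in turn (edgeR adjusted p of 0.0511 to 0.116), and when libraries were scaled to their totals only (0.41, edgeR adjusted p = 0.0886).

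NOTCH2, the receptor for that signal in hepatoblasts, rose in both intervals. Its levels were 27.7, 25.2, 20.8 and 35.2 CPM at GD100 and 37.8, 44.7, 54.4, 40.3 and 42.3 CPM at GD124, and at GD144 they ran from 49.6 through a median of 56.1 to 70.7 CPM. Every GD124 and every GD144 library was above every GD100 library, while GD144 and GD124 overlapped in part, as did the 2 stages in all 9 genes (0 of 9 without overlap upward, beside 7.81% of all tested genes). Such separation from GD100 in either direction was seen in 24.3% of all tested genes for GD124 and 40.0% for GD144. The log2 change was 0.69 ± 0.16 for GD124 against GD100 (edgeR adjusted p = 0.00415), 0.41 ± 0.14 for GD144 against GD124 (edgeR adjusted p = 0.0416) and 1.10 ± 0.16 for GD144 against GD100 (edgeR adjusted p = 2.17e-05), the last a 2.15-fold higher level. With GD100 replicate 1 alone the first of these was 0.66 (edgeR adjusted p = 0.0621). The change of the later interval lost its call without any one of GD124 replicates 1, 2, 4 and 5 or GD144 replicates 2, 4 and 6 (edgeR adjusted p of 0.0595 to 0.101). NOTCH2 overlaps the uncharacterised locus LOC121817658 in the RefSeq annotation, and whether counting used the strand is not given in the sources used here, so its level is uncertain to that extent.

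Of the other Notch ligands and receptors, DLL4, NOTCH1, NOTCH3 and NOTCH4 were called higher for GD144 against GD124, beside 12.1% of all tested genes. Over the whole span the ligand list (3 of 4 tested) had a median log2 change of 0.12 and the receptor list (3 genes) of 0.38. DLL4, the Delta-like ligand known from endothelium, averaged 4.18 ± 1.45 CPM at GD100, 4.15 ± 1.03 CPM at GD124 and 11.3 ± 3.67 CPM at GD144 (SD, n = 4, 5 and 6), with all GD144 libraries above all earlier ones. Its log2 change was 1.45 ± 0.27 for GD144 against GD124 (edgeR adjusted p = 0.000841) and -0.01 ± 0.29 for GD124 against GD100 (edgeR adjusted p = 0.99), and the changes of the 2 intervals were not called different (edgeR adjusted p = 0.0893, DESeq2 adjusted p = 0.0353, limma adjusted p = 0.0247). JAG2 and DLL1 were not called in any comparison, and DLL3 was below the filter. NOTCH1, the receptor used in blood and vessel development, fell at GD124 to 22.3 ± 1.91 CPM, against 31 ± 6.37 CPM at GD100 (log2 -0.47 ± 0.13, edgeR adjusted p = 0.0101), and rose at GD144 to 29.6 ± 1.93 CPM (log2 0.41 ± 0.12 against GD124, edgeR adjusted p = 0.0159). The changes of NOTCH1 differed between the intervals by 0.88 ± 0.22 on the log2 scale (edgeR adjusted p = 0.0256), a test called for 5.90% of all genes. That call was lost without GD124 replicate 1, 2 or 5 (edgeR adjusted p of 0.0549 to 0.0775). NOTCH4, an endothelial receptor, and NOTCH3, a receptor of vessel wall cells, rose for GD144 against GD124 by log2 0.64 ± 0.16 and 0.76 ± 0.23 (edgeR adjusted p = 0.0067 and 0.0227). The call of NOTCH3 was lost without GD124 replicate 2 or 5 (edgeR adjusted p = 0.0634 and 0.0654). The changes of NOTCH4 and NOTCH3 for GD124 against GD100 were not called, and neither was the difference between intervals (edgeR adjusted p = 0.0798 and 0.187), which DESeq2 and limma-voom called for NOTCH4 (adjusted p = 0.0322 and 0.028).

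Endothelial markers were higher as well at GD144 than at GD124, and their part in the later rise of these ligand and receptor genes was not tested. Of 9 such markers 8 were called higher for GD144 against GD124 and 3 higher and 1 lower for GD124 against GD100. All tested genes were called higher in 12.1% of cases in the later interval. In the earlier one they were called higher in 16.6% and lower in 17.4%. The summed level of the endothelial markers was 213 to 345 CPM at GD100, 256 to 502 CPM at GD124 and 494 to 743 CPM at GD144. The median sum was 357 CPM at GD124 and 282 CPM at GD100, with ranges that overlapped. PECAM1, an adhesion molecule of endothelium, averaged 12 ± 7.28, 20.2 ± 8.32 and 52.6 ± 10.1 CPM at the 3 stages. Marker genes of stellate cells and portal fibroblasts, kept in 1 list, were called higher in 5 of 14 cases for GD144 against GD124 and in 5 of 14 for GD124 against GD100, with none lower. Their summed level was 699.7 to 1034 CPM at GD100, 1052 to 1375 CPM at GD124 and 1054 to 1831 CPM at GD144.

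Of 7 Notch target genes 6 were tested, and HEY1, HES1 and HEYL, all repressors of the hairy-related family, were called higher for GD144 against GD100 (median log2 change of the list 0.96). The same comparison called 27.1% of all tested genes higher and 55.0% in either direction. HEY1 had 3.49 to 5.42 CPM at GD100, 9.26 to 13 CPM at GD124 and 40.4 to 66.1 CPM at GD144, with no overlap between any pair of stages. Its log2 change was 1.35 ± 0.18 for GD124 against GD100 (edgeR adjusted p = 0.000143) and 2.37 ± 0.16 for GD144 against GD124 (edgeR adjusted p = 1.86e-07). The later change exceeded the earlier one by 1.02 ± 0.28 on the log2 scale (edgeR adjusted p = 0.0442), a call lost without any one of 8 libraries (GD100 replicate 3, GD124 replicates 1 to 4 or GD144 replicates 4 to 6, edgeR adjusted p of 0.0527 to 0.127). HES1, the main Notch target studied in duct formation, averaged 6.0 ± 1.59, 10.5 ± 3.0 and 15.2 ± 6.15 CPM at the 3 stages. It rose by log2 1.34 ± 0.30 for GD144 against GD100 (edgeR adjusted p = 0.0012), while the steps of 0.81 ± 0.30 and 0.54 ± 0.27 did not pass (edgeR adjusted p = 0.0505 and 0.155), although the first passed with DESeq2 and limma-voom (adjusted p = 0.0446 and 0.0325). With GD100 replicate 1 alone the HES1 change over the whole span was 1.12 (edgeR adjusted p = 0.125). HEYL rose by log2 1.24 ± 0.30 over the whole span (edgeR adjusted p = 0.00249). HEY2, HES4 and NRARP were not called, and HES5 was below the filter.

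**Figure D2:**
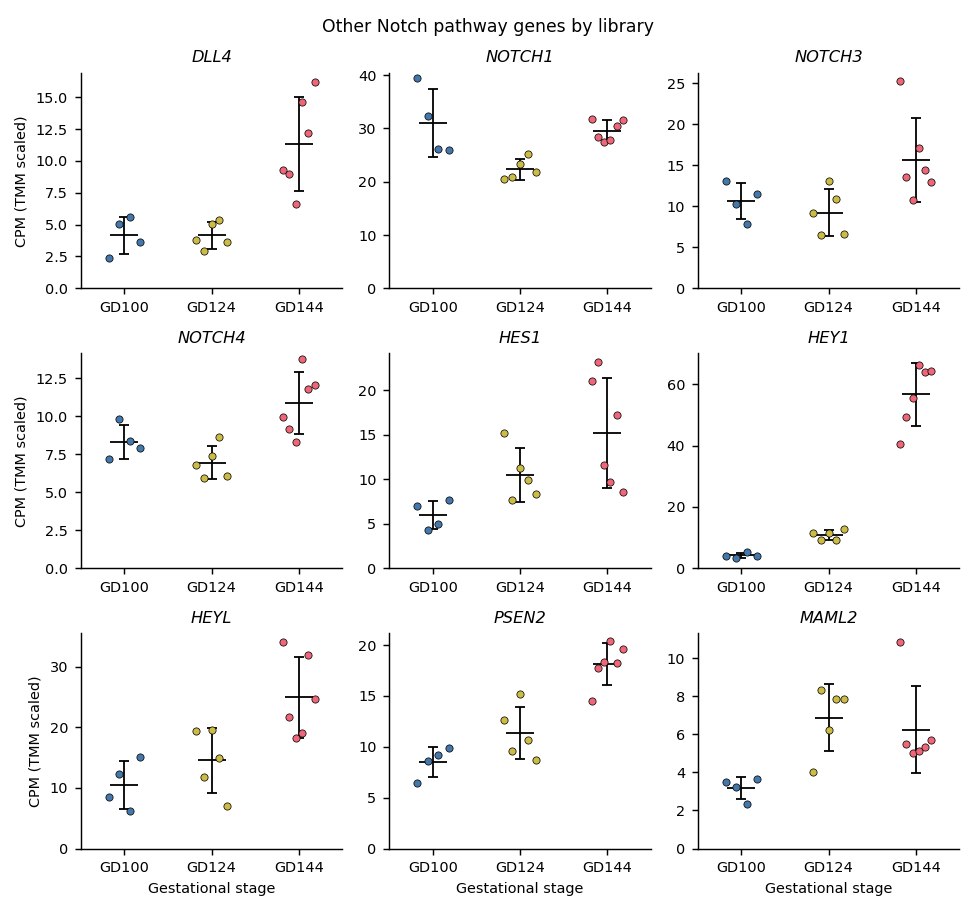
Levels of 9 further Notch pathway genes in CPM, by library and gestational stage, with the mean and SD as bars. DLL4 lies between 6.61 and 16.2 CPM in the GD144 libraries, above all GD100 and GD124 libraries, HEY1 separates all 3 stages, and NOTCH1 is lowest at GD124.

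The proteases that cut the receptor and its nuclear partners were called higher more often than lower. Of 12 such genes 5 rose and 1 fell for GD124 against GD100, 2 rose and none fell for GD144 against GD124, and 7 rose and 1 fell for GD144 against GD100 (median log2 change 0.42). All tested genes were called higher in 16.6%, 12.1% and 27.1% of cases, and lower in 17.4%, 15.4% and 27.9%. PSEN2, a catalytic subunit of gamma-secretase, averaged 8.53 ± 1.49, 11.3 ± 2.59 and 18.2 ± 2.06 CPM at the 3 stages and rose by log2 0.68 ± 0.16 for GD144 against GD124 (edgeR adjusted p = 0.00434). MAML2, a coactivator of the Notch complex, rose by log2 1.11 ± 0.27 for GD124 against GD100 (edgeR adjusted p = 0.00591), and with GD100 replicate 1 alone by 0.97 without a call (edgeR adjusted p = 0.178). APH1B, another gamma-secretase subunit gene, rose by log2 0.81 ± 0.27 in the same comparison (edgeR adjusted p = 0.0272). Its call was lost with scaling to library totals (0.64, edgeR adjusted p = 0.0846), in a fit of both stages only (edgeR adjusted p = 0.0584), with GD100 replicate 1 alone (1.25, edgeR adjusted p = 0.0764), and without GD100 replicate 1 or 2 or GD124 replicate 2 or 5 (edgeR adjusted p of 0.0554 to 0.0893). MAML2, APH1B and RBPJ each overlap another annotated gene, with the same uncertainty as for NOTCH2. So do NOTCH4, ONECUT2, GRHL2, CDH1, ITGB4, ANO1 and SSTR2, and also DLL1, PECAM1, F11R, FLRT2 and ITGA1. RBPJ itself, named here after its values were seen, stood at 26.9 ± 1.92 CPM at GD144 and 19.7 ± 1.08 CPM at GD124 (log2 0.45 ± 0.10, edgeR adjusted p = 0.00241).

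Modifiers of the signal were split, with 5 of 14 higher and 5 lower for GD144 against GD100 and a median log2 change of -0.14. Beside them 27.1% of all tested genes were called higher and 27.9% lower. ITCH, a ubiquitin ligase, rose by log2 0.86 ± 0.14 (edgeR adjusted p = 9.71e-05), and MFNG, a fringe glycosyltransferase that changes which ligands a receptor prefers, by 1.01 ± 0.34 (edgeR adjusted p = 0.0202). The call of MFNG was lost without GD100 replicate 1 or 4 (edgeR adjusted p = 0.0627 and 0.0594). DTX2, a Deltex family gene, fell by 1.23 on the log2 scale (SE 0.29, edgeR adjusted p = 0.0019). NEURL1, a Neuralized ubiquitin ligase gene, fell to 0.357 ± 0.22 CPM at GD144, against 2.55 ± 1.38 CPM at GD124 (log2 -2.85 ± 0.51, edgeR adjusted p = 0.000615).

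SOX9 and SOX4, transcription factor genes of the duct fate, did not pass the edgeR test in any pair of stages with all libraries. SOX9, the earliest marker of duct precursors in mouse, had 11.1, 5.76, 5.9 and 15.9 CPM at GD100, 14.6, 9.33, 18.4, 26.7 and 11.9 CPM at GD124 and 9.92 to 17.7 CPM at GD144, with a median of 12.5 CPM. The stages overlapped widely, and the levels of GD100 replicates 2 and 3 were below every other library. The log2 change was 0.74 ± 0.32 for GD124 against GD100 (95% interval 0.06 to 1.43, edgeR adjusted p = 0.0876) and 0.42 ± 0.31 for GD144 against GD100 (interval -0.24 to 1.08, edgeR adjusted p = 0.269). Without GD100 replicate 4 these were 1.07 and 0.78, and both passed (edgeR adjusted p = 0.0164 and 0.0422). By limma-voom they were 1.15 and 0.91 and passed as well (limma adjusted p = 0.00508 and 0.0139), and the first also passed in edgeR without GD124 replicate 2 (0.89, edgeR adjusted p = 0.0477).

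SOX4, which acts with SOX9 in mouse duct development and is also expressed in blood progenitors, stood at 27.9, 20.6, 18 and 18.6 CPM at GD100 and at 19.6, 16.4, 25.2, 28.8 and 16.4 CPM at GD124. At GD144 it ran from 10.7 through a median of 15.8 to 22.3 CPM. Its log2 change for GD144 against GD100 was -0.42 ± 0.21 (interval -0.87 to 0.03, edgeR adjusted p = 0.104), -0.51 when libraries were scaled to their totals only (edgeR adjusted p = 0.0492) and -0.54 without GD144 replicate 2 (edgeR adjusted p = 0.0371). Summed markers of blood progenitors were 117 to 276 CPM at GD100, 64.5 to 102 CPM at GD124 and 55.5 to 74.1 CPM at GD144, and their part in the level of SOX4 was not tested.

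Among 10 further transcription factor genes of duct cells 5 rose and none fell for GD124 against GD100, beside 16.6% of all tested genes called higher. For GD144 against GD100 6 rose and 1 fell (median log2 change 0.98), beside 27.1% of all tested genes called higher and 27.9% lower. For GD144 against GD124 the median of the list was 0.18 and its lowest adjusted p was 0.0916 (ELF3, edgeR). ONECUT2, a factor shared by hepatoblasts and duct cells, averaged 130 ± 15.9 CPM at GD124 and 36.4 ± 31.5 CPM at GD100 (log2 1.83 ± 0.37, edgeR adjusted p = 0.00204). GD100 replicate 1 held 83.1 CPM, against 14.9 to 25.3 CPM in the other GD100 libraries, and with it alone the change was 0.64 (edgeR adjusted p = 0.0585), and over the whole span 0.47 (edgeR adjusted p = 0.0967) in place of 1.65 ± 0.36. WWTR1, the gene of the Hippo pathway coactivator TAZ, rose by log2 1.25 ± 0.22 for GD144 against GD100 (edgeR adjusted p = 0.000152), and EHF, an epithelial ETS factor, by 1.34 ± 0.28 (edgeR adjusted p = 0.000793). GRHL2, an epithelial factor, rose by 1.24 ± 0.44 (edgeR adjusted p = 0.0234), a call lost without GD100 replicate 3 or GD144 replicate 1 (edgeR adjusted p = 0.0524 and 0.052) and with GD100 replicate 1 alone, where the change was 0.49 (edgeR adjusted p = 0.525).

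KRT19, a keratin of duct epithelium, was not called in any comparison by edgeR with all libraries. It had 7.64, 4.96, 4.66 and 15.1 CPM at GD100, 7.84, 8.72, 11.7, 8.25 and 8.15 CPM at GD124, and a lowest, median and highest value of 5.5, 8.87 and 12.8 CPM at GD144. GD100 replicate 4 held the highest level of all 15 libraries, and GD100 replicates 2 and 3 the lowest ones. The log2 change was 0.17 ± 0.30 for GD144 against GD100 (95% interval -0.47 to 0.81, edgeR adjusted p = 0.661). Without GD100 replicate 4 it was 0.68 and passed (edgeR adjusted p = 0.0384). The limma-voom test with quality weights gave 0.73 for GD144 against GD100 (limma adjusted p = 0.0254) and 0.70 for GD124 against GD100 (limma adjusted p = 0.0484). It also called any difference between stages (limma adjusted p = 0.0461).

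EPCAM, an adhesion molecule of duct cells and their precursors, had 1.26, 1.68, 1.71 and 4.66 CPM at GD100, 3.48, 0.576, 6.28, 1.3 and 1.96 CPM at GD124 and 2.04 to 5.02 CPM at GD144. Within GD144 the highest library was 2.45 times the lowest one, and within GD124 10.9 times. The change for GD144 against GD100 was log2 0.60 ± 0.53 (interval -0.53 to 1.72, edgeR adjusted p = 0.359).

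In a list of 19 further duct cytoskeleton and junction genes 17 were tested, and 6 of them rose for GD144 against GD100, with a median log2 change of 0.53 over the list. None of the list fell, beside 27.1% of all tested genes called higher and 55.0% called in either direction. KRT8, a simple epithelial keratin that hepatocytes also make, averaged 268 ± 58 CPM at GD124 and 137 ± 65.1 CPM at GD100 (log2 0.97 ± 0.25, edgeR adjusted p = 0.00742). Its partner keratin KRT18 stood at 86.8 ± 28.5 CPM at GD124 and 86.6 ± 39.3 CPM at GD100 (edgeR adjusted p = 0.995). CDH1, which encodes E-cadherin and is expressed by periportal hepatocytes as well as ducts, rose by log2 1.53 ± 0.26 for GD144 against GD100 (edgeR adjusted p = 0.000105). ITGB4, the gene of an integrin that anchors epithelium to basement membrane, rose by 2.81 ± 0.48 (edgeR adjusted p = 0.000133). It had 8.71 to 38.5 CPM at GD144 and 2.22 to 3.93 CPM at GD124. With GD100 replicate 1 alone the ITGB4 change was 1.76 (edgeR adjusted p = 0.0645). Hepatocyte markers rose in 8 of 10 cases for GD144 against GD100, and their summed level was 20961.6 to 66832 CPM at GD100, 86567 to 102204 CPM at GD124 and 65960.2 to 102248 CPM at GD144. Their part in the rise of genes that hepatocytes share was not tested.

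**Figure D3:**
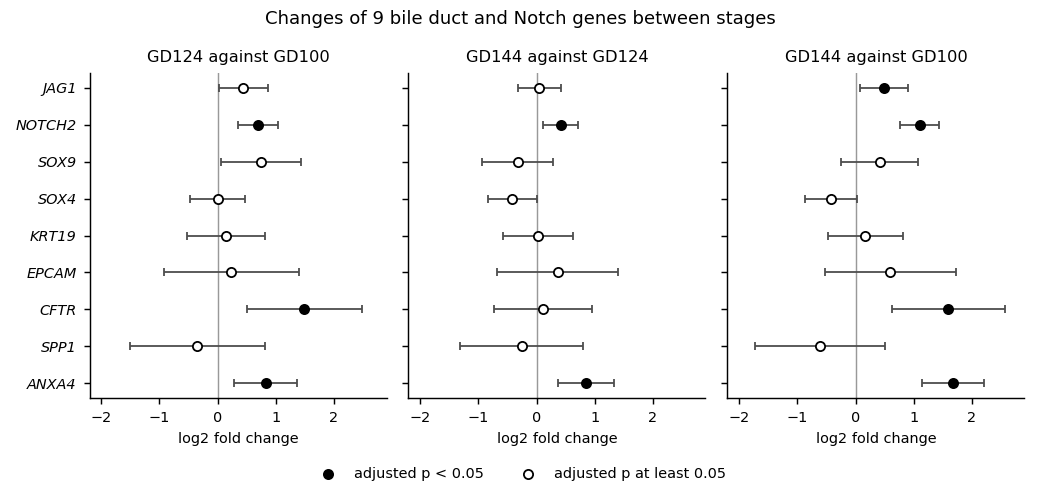
Log2 fold changes of the 9 genes in each pairwise comparison, later stage over earlier stage, with 95% intervals from the edgeR fit of all 15 libraries. Filled points passed an adjusted p under 0.05, and CFTR and ANXA4 lie farthest to the right for GD144 against GD100, at 1.59 and 1.67.

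CFTR, the chloride channel of the apical duct membrane, was higher at GD124 and at GD144 than at GD100, with no further change detected between GD124 and GD144. It had 1.29, 0.803, 0.837 and 3.36 CPM at GD100, 3.48, 2.45, 7.49, 5.97 and 2.6 CPM at GD124 and 2.46 to 7.31 CPM at GD144, with a median of 4.67 CPM. GD100 replicates 1 to 3 were below every later library, and replicate 4 was within the later range. The log2 change was 1.49 ± 0.47 for GD124 against GD100 (edgeR adjusted p = 0.022), 1.59 ± 0.46 for GD144 against GD100 (edgeR adjusted p = 0.00715) and 0.11 ± 0.40 for GD144 against GD124 (interval -0.73 to 0.95, edgeR adjusted p = 0.874). The changes of the 2 intervals were not called different (log2 difference -1.38 ± 0.72, edgeR adjusted p = 0.261). The earlier change lost its call without GD100 replicate 1, 2 or 3 or GD124 replicate 3 (log2 1.21 to 1.41, edgeR adjusted p of 0.0527 to 0.0772) and with GD100 replicate 1 alone (1.76, edgeR adjusted p = 0.102). Without GD100 replicate 4 it was 2.14.

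Other transport genes of the duct were mixed, and of 9 tested 2 rose and 2 fell for GD144 against GD100 (median log2 change 0.09). In that comparison 27.1% of all tested genes were called higher and 27.9% lower. SCTR, the receptor through which secretin drives duct secretion, rose by log2 1.11 ± 0.25 for GD124 against GD100 (edgeR adjusted p = 0.00378, and 0.0839 with GD100 replicate 1 alone) and had 6.75 to 13.4 CPM at GD144, against 3.35 to 5.36 CPM at GD100. SLC5A1, a sodium-glucose cotransporter, rose by log2 2.02 ± 0.46 over the whole span (edgeR adjusted p = 0.00138). ANO1, a calcium-activated chloride channel, fell to 5.06 ± 2.56 CPM at GD144, against 21 ± 1.63 CPM at GD100 (log2 -2.05 ± 0.36, edgeR adjusted p = 0.00016). SSTR2, a somatostatin receptor, fell by 1.84 on the log2 scale for GD144 against GD124 (edgeR adjusted p = 0.00662). Of 7 cilium genes, whose defects cause cystic ducts, 5 rose for GD124 against GD100 and 3 rose and 1 fell for GD144 against GD100 (median log2 change 0.36). For GD124 against GD100 16.6% of all tested genes were called higher. PKHD1, the gene of fibrocystin, rose by log2 1.77 ± 0.30 over the whole span (edgeR adjusted p = 0.000104) and PKD2, the gene of polycystin-2, by 1.19 ± 0.21 (edgeR adjusted p = 0.000181). DCDC2 rose to 24.7 ± 7.11 CPM at GD124, against 14.3 ± 6.32 CPM at GD100 (log2 0.79 ± 0.27, edgeR adjusted p = 0.0326). This call was lost with scaling to library totals (edgeR adjusted p = 0.0707), in a fit of both stages only (edgeR adjusted p = 0.0511), with GD100 replicate 1 alone (1.21, edgeR adjusted p = 0.0532), and without GD100 replicate 1, 2 or 3 or GD124 replicate 1 or 4 (edgeR adjusted p of 0.0796 to 0.113). DCDC2 fell to 9.14 ± 2.03 CPM at GD144, against GD124 (log2 -1.43 ± 0.24, edgeR adjusted p = 0.000394), and the 2 changes differed by -2.22 ± 0.42 (edgeR adjusted p = 0.00936).

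SPP1 encodes osteopontin, a secreted protein made by duct cells and macrophages. It had the fewest counts of the 9 genes, 7 to 66 per library. Levels were 0.948, 1.22, 0.255 and 2.58 CPM at GD100, 0.348, 1.15, 1.07, 1.34 and 0.982 CPM at GD124 and 0.331 to 1.52 CPM at GD144. The stages overlapped, and the log2 change for GD144 against GD100 was -0.61 ± 0.52 (interval -1.72 to 0.50, edgeR adjusted p = 0.34). Its sign was not stable, with 0.03 on the log2 scale when GD100 replicate 4 was left out. Macrophage markers (8 of 10 measured) rose in 7 cases for GD144 against GD100, beside 27.1% of all tested genes called higher. The summed level of these markers was 85.9 to 381 CPM at GD100, 324 to 549 CPM at GD124 and 389 to 706 CPM at GD144. Their part in the level of SPP1 was not tested.

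ANXA4, which encodes a calcium-dependent membrane-binding protein abundant in duct epithelium, rose in both intervals. It had 42.0, 19.2, 24.4 and 34.5 CPM at GD100, 80.9, 54.7, 41.9, 52.6 and 35.5 CPM at GD124 and 70.1 to 126 CPM at GD144, with a median of 98.3 CPM. Every GD144 library was above every GD100 library. The log2 change was 0.82 ± 0.25 for GD124 against GD100 (edgeR adjusted p = 0.0202), 0.85 ± 0.23 for GD144 against GD124 (edgeR adjusted p = 0.011) and 1.67 ± 0.26 for GD144 against GD100 (edgeR adjusted p = 4.01e-05), a 3.19-fold higher level. The earlier step lost its call without GD100 replicate 2 or 3 or GD124 replicate 1 (0.62 to 0.72, edgeR adjusted p of 0.06 to 0.0746). With GD100 replicate 1 alone it was 0.34. Summed erythroid markers (8 of 10 measured) were 3442 to 8427 CPM at GD100, 1716 to 3951 CPM at GD124 and 96.1 to 3342 CPM at GD144. The highest GD144 sum was that of replicate 3, and the next was 384 CPM in replicate 4. The part of the lower erythroid markers, and of the higher hepatocyte markers, in the rises of ANXA4 and NOTCH2 was not tested. Within stages ANXA4 and NOTCH2 had r of 0.59 and 0.66 with summed hepatocyte markers, and of -0.27 and -0.20 with summed erythroid markers. Other summed lists gave 0.40 and 0.69 (hepatoblast), 0.38 and 0.59 (macrophage), and -0.20 and 0.62 (stellate and portal fibroblast). Further values were -0.51 and -0.37 (progenitor), -0.33 and -0.26 (cell cycle), and -0.10 and -0.23 (mesothelial). For lymphoid markers r was -0.06 and 0.31, and for endothelial markers -0.02 and 0.07.

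TGF-beta and activin signals take part in placing duct precursors near the portal vein. Of 11 genes of these signals 7 rose and 2 fell for GD144 against GD100 (median log2 change 0.36). Over all 10 lists of duct and Notch genes beside the 9, 92 genes were tested. Of these 25 rose and 3 fell for GD124 against GD100, 17 rose and 8 fell for GD144 against GD124, and 40 rose and 12 fell for GD144 against GD100. Of all tested genes 16.6%, 12.1% and 27.1% were called higher in these comparisons, and 17.4%, 15.4% and 27.9% lower. Called in either direction were 34.0%, 27.5% and 55.0%. INHBA, the activin A subunit gene, averaged 2.19 ± 0.235, 6.04 ± 1.87 and 37.5 ± 14.6 CPM at the 3 stages and rose in both intervals (log2 1.46 ± 0.29 and 2.63 ± 0.27, edgeR adjusted p = 0.00165 and 8.40e-06), the first without a call when GD100 replicate 1 stood alone (1.54, edgeR adjusted p = 0.0929). SMAD7, an inhibitor that the pathway itself induces, rose by log2 1.34 ± 0.14 for GD144 against GD124 (edgeR adjusted p = 1.44e-05). FST, the gene of the activin antagonist follistatin, fell to 8.86 ± 5.27 CPM at GD144, against 63.7 ± 19.7 CPM at GD124 (log2 -2.85 ± 0.47, edgeR adjusted p = 0.00053). TGFB2, a TGF-beta ligand gene, rose by log2 1.08 ± 0.36 over the whole span (edgeR adjusted p = 0.0167), at levels of 0.903 to 1.57 CPM at GD144 and 0.291 to 0.768 CPM at GD100, and lost the call without GD100 replicate 3 (edgeR adjusted p = 0.0531). With GD100 replicate 1 alone its change was 0.89 (edgeR adjusted p = 0.235).

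The genes were also set against KRT19 in the same library, a ratio of counts that no scaling of libraries affects, chosen after the values were seen. CFTR had 0.169, 0.162, 0.18 and 0.222 counts per KRT19 count in GD100 replicates 1 to 4. It had 0.444, 0.281, 0.643, 0.723 and 0.319 at GD124 and 0.192 to 0.778 at GD144, with a median of 0.622. GD100 replicate 4, high in both genes, had a ratio near those of the other GD100 libraries. All GD124 libraries were above all GD100 libraries (log2 difference of mean log ratios 1.31, exact two-sided permutation p = 0.0159, the smallest that 5 against 4 libraries allow). One GD144 library, replicate 5, lay within the GD100 range (GD144 against GD100 1.49, exact permutation p = 0.019). For ANXA4 the ratio was 11.3 ± 3.93 at GD144 and 4.22 ± 1.48 at GD100 (SD), with no overlap (exact permutation p = 0.00952, the smallest possible for 6 against 4). Over the 24 ratios and comparisons tested no adjusted p was under 0.05 (exact permutation tests, lowest adjusted p = 0.152), and 5 had an unadjusted p under 0.05.

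**Figure D4:**
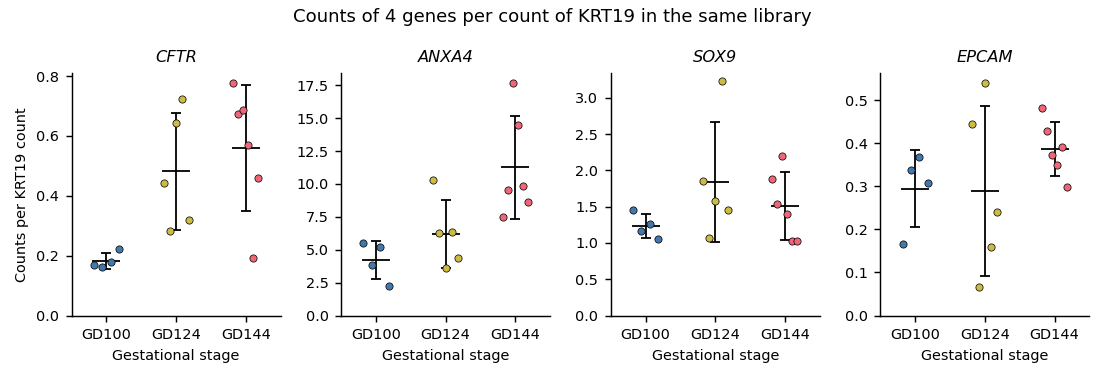
Counts of CFTR, ANXA4, SOX9 and EPCAM per count of KRT19 in each library, by gestational stage, with the mean and SD as bars. The GD100 ratios of CFTR lie between 0.162 and 0.222, below all 5 GD124 ratios, while those of SOX9 and EPCAM overlap between stages.

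Libraries of the same stage differed in several of these genes at once. GD100 replicate 4 was the highest of its stage for 6 of the 9 genes (KRT19, SOX9, EPCAM, CFTR, SPP1 and NOTCH2), and GD100 replicate 3 the lowest for 5. In GD100 replicate 4 the summed hepatocyte markers were 66832 CPM, against 20961.6 to 38654.1 CPM in the other GD100 libraries, and the summed erythroid markers 3442 CPM, against 3683 to 8427 CPM. After removal of the stage means, the deviations of log2 CPM of SOX9 and CFTR had a Pearson r of 0.82 over the 15 libraries (Spearman 0.74, and r = 0.73 without the 2 libraries farthest from the median in SOX9). This was the highest among the 36 pairs, and such values are descriptions of libraries that share composition and depth. For KRT19 the values were 0.60 with SOX9, 0.57 with CFTR, 0.57 with EPCAM and 0.32 with ANXA4. ANXA4 had r between -0.03 and 0.06 with 6 of the other 8 genes.

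The 5 genes whose deviations were most like those of KRT19, of 14369 genes with a mean of at least 1 CPM, were OLFML2A (r = 0.90), F11R (0.88), AGT (0.87), FLRT2 (0.85) and ITGA1 (0.84), each over 15 libraries. F11R encodes a junctional adhesion molecule of epithelium and AGT the hepatocyte product angiotensinogen. In the stellate and portal fibroblast list ELN ranked 8th and COL1A1 65th by this likeness, while PDGFRA ranked 7792nd and RELN 10277th. SOX9 ranked 537th and CFTR 741st among these 14369 genes by likeness to KRT19. Over the same libraries the deviations of KRT19 had r of 0.73 with those of the summed hepatocyte markers and of -0.71 with those of the summed erythroid markers. Other summed lists gave similar values, 0.67 for hepatoblast, 0.66 for macrophage and 0.61 for stellate and portal fibroblast markers, and -0.71 for cell cycle genes. For progenitor, mesothelial, endothelial and lymphoid markers r was -0.55, -0.42, -0.01 and 0.14. Such sums are led by the most abundant genes. ALB averaged 66330 CPM at GD144, where the median hepatocyte sum was 93956 CPM. Taken singly, ALB, SERPINC1, APOA1, FGB and APOB had r of 0.74, 0.73, 0.70, 0.69 and 0.67 with KRT19. The other hepatocyte markers CPS1, TAT, TTR, G6PC1 and CYP2E1 had 0.38, 0.33, 0.29, 0.14 and -0.04.

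**Figure D5:**
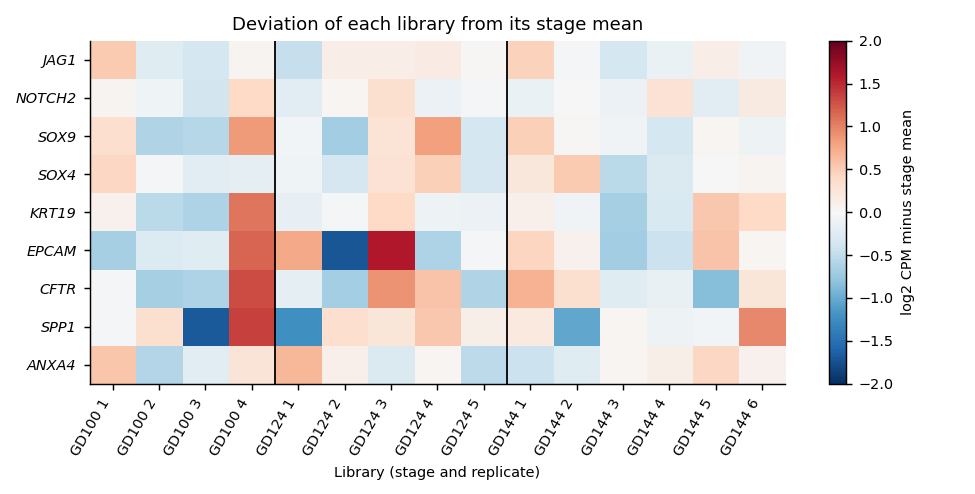
Colour gives log2 CPM of each gene in each library minus the mean of its stage, from blue (below) to red (above), with lines between stages. GD100 replicate 4 is above its stage mean in KRT19, EPCAM, CFTR, SOX9 and SPP1, and in GD124 EPCAM runs from -1.70 to 1.60.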

How the data were processed

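RNA of fetal sheep liver was sequenced as poly(A) libraries at 3 gestational stages. The authors deposited estimated counts per gene. Per the submitters' processing notes the tool was DRAGEN. Neither its version nor a genome build or strand setting is stated in the labels. Among the deposited expected counts 6.549% were fractional. They were rounded before testing, with a shift of at most 27.86 in a library's total. Libraries were grouped by their titles.

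Genes were filtered with filterByExpr and fitted by the edgeR 4.0.16 quasi-likelihood method (R 4.3.3, TMM scaling, robust) in 1 model of all 15 libraries, with contrasts between stages. The coefficient of variation between libraries of a stage was 34%. Alternatives were limma 3.58.1 (voom), DESeq2 1.42.0, other scalings and filters, a replicate block and leaving out each library. The script was tested on simulated data. Deviations are log2 CPM (prior count 2) minus the stage mean. No pair of libraries agreed within sampling noise (lowest chi-square per degree of freedom 43.72). Same-numbered libraries of different stages did not deviate together (r from -0.155 to 0.144), so numbers were not used as pairs. Overlaps between genes come from RefSeq, in which 28863 names matched, and are not tied to the build of the counts.

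The genes and all lists were chosen with earlier results of these data known. From each list up to 4 called genes were named by the size of their change for GD144 against GD100, among genes averaging 1 CPM or more at the higher stage, besides HES1, HEY1, KRT8 and KRT18 whatever they did. Some genes that this rule names are counted in their lists but not reported here. JAG2, DLL1, DLL3, RBPJ, HEY2, HES4, HES5, NRARP and ELF3 were named after their values were seen. Promoter and protein sequences were not used here.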

Additional observations from a re-analysis of the deposited data

Results flagged for a closer look

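Among 141 groups of 4 to 6 libraries, 27 of them of the 9 genes, 3 values of the 9 genes and 8 others stood apart from the rest of their group by Dixon's test, where chance gives about 1 in 20 groups. Of the 9 genes these were EPCAM in GD100 replicate 4 (4.66 CPM, next 1.71), KRT19 in GD124 replicate 3 (11.7 CPM, next 8.72) and JAG1 in GD124 replicate 1 (12.1 CPM, next 16.9). GD100 replicate 4 also stood apart in KRT8 (234 CPM, next 116) and DCDC2 (23.7 CPM, next 12.1). ONECUT2 was apart in GD100 replicate 1 (83.1 CPM), INHBA in GD124 replicate 1 (9.29 CPM) and MFNG in GD124 replicate 3 (5.24 CPM). MAML2 and SSTR2 were apart in GD144 replicate 1 (10.9 and 10.01 CPM), and ITGB4 in GD144 replicate 5 (38.5 CPM).

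For 6 of the genes reported here the later change (GD144 against GD124) differed from the earlier one (GD124 against GD100) in edgeR. This test was called for 5.90% of all tested genes. The genes looked at were 47, less some not reported here, and many had been named for a call in these data. The 6 are therefore not a rate for duct and Notch genes. The log2 difference was 0.88 for NOTCH1 and 1.02 for HEY1 (edgeR adjusted p = 0.0256 and 0.0442). It was -3.89 for NEURL1 and -2.02 for ONECUT2 (edgeR adjusted p = 0.0159 and 0.049). It was -2.22 for DCDC2 and -4.22 for FST (edgeR adjusted p = 0.00936 and 0.0105). The ONECUT2 difference was lost without any one of 14 of the 15 libraries (edgeR adjusted p of 0.0533 to 0.0963) and with RLE size factors, scaling to library totals, TMM without the 20 most abundant genes or no filter (edgeR adjusted p of 0.0519 to 0.0662). The HEY1 difference was lost without any one of 8 libraries (edgeR adjusted p up to 0.127), that of NOTCH1 without GD124 replicate 1, 2 or 5 (edgeR adjusted p up to 0.0775) and that of NEURL1 without GD124 replicate 3 (edgeR adjusted p = 0.0502). The 2 changes share the GD124 libraries.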

How the results depend on the processing

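Of 1080 results of the 9 genes under alternatives 1029 kept their side of the threshold, 31 lost the call and 20 gained it. Most of the 1080 were of results not called in the main fit, and the 31 losses fall on the called ones alone. The main fit called 3, 2 and 4 of the 9 genes in the pairwise comparisons, 0 for the difference between intervals and 3 for any difference. No called change turned its sign, but 46 of those not called did, in every gene but SOX9 and NOTCH2. Without each library in turn, 1 to 4 of the 9 genes were called for GD124 against GD100 (3 with all libraries) and 1 to 2 for GD144 against GD124 (2), and the genes whose later change differed from the earlier one numbered 379 to 1743 (1002), 4 to 11 of them in the lists of duct and Notch genes (9). When GD100 was represented by replicate 1 alone, 0 of the 9 genes and 3167 of all genes were called for GD124 against GD100 (5774 with all 4), and this lone library was assumed to vary like the others. With limma-voom 6 of the 9 genes were called for GD124 against GD100 and 6 for any difference between stages, and 1 for the difference between intervals. It called 53 list genes for GD124 against GD100, and 24 list genes and 3394 of all genes for the difference between intervals. By edgeR 34.0% of all tested genes were called for GD124 against GD100 and 56.3% for any difference between stages. The limma-voom shares for these 2 comparisons are not given here, so its counts of 6 are not a result particular to the 9 genes. DESeq2 called 1793 genes, 14 in the lists, for the difference between intervals. A replicate block left 1 of the 9 genes for GD144 against GD124 (NOTCH2 lost, log2 0.36, edgeR adjusted p = 0.138), lost JAG1 over the whole span (0.50, edgeR adjusted p = 0.0811), lost the difference between intervals of HEY1, NOTCH1, NEURL1, ONECUT2 and FST (edgeR adjusted p = 0.0802, 0.11, 0.0532, 0.0663 and 0.0628), NOTCH1 for GD144 against GD124 (0.0799), APH1B for GD124 against GD100 (0.063) and TGFB2 over the whole span (0.0534), and called 325 genes, 3 in the lists, for the difference between intervals. Scaling by total counts alone moved the median log2 change of all genes to -0.16 in place of 0.02 for GD124 against GD100, and put 67% in place of 36.4% of the calls for the difference between intervals higher (median 0.22 in place of -0.04). The cause was not tested. Counts of SPP1 and EPCAM, as low as 7 and 16 per library, limit what their tests can show.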
